A study of Mus musculus with 6 samples.

Results

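A set of 10 genes of the smooth muscle contractile apparatus and the contractile cytoskeleton was followed in mouse epiblast stem cells (EpiSC) and mouse embryonic stem cells (mES): Acta2, Tagln, Actg2, Cnn1, Cnn2, Myl9, Tpm1, Tpm2, Actn1 and Vim. EpiSC resemble the epiblast of the embryo after implantation, and mES the earlier epiblast of the blastocyst. Every probe of the array whose listed gene name is one of these 10 was taken, control spots left out, which gave 19 of the 41174 probes on the array. Of these 19 probes, 17 entered the comparison, each clearly brighter than background on all 3 arrays of EpiSC, of mES or of both. The 2 others, 1 of Acta2 (A_52_P644232) and 1 of Vim (A_52_P287532), were not well above background on any array.

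Total RNA labelled with Cy3 was hybridised to 6 Agilent arrays in 1 colour, 3 of EpiSC and 3 of mES. EpiSC replicate 1 was line EpiSC-5, and replicates 2 and 3 were line EpiSC-7 at passages 20 and 25, so that the 3 EpiSC arrays came from 2 lines. The mES arrays were line ESF122 (replicate 1), line ESF175/1 (replicate 2) and a line that its labels give both as ESF58/2 and as ESF58/1 (replicate 3). Both cell types were cultured on irradiated mouse embryonic fibroblasts (MEFs), EpiSC with FGF2 and mES with LIF in a medium otherwise described alike. The RNA of every culture can therefore include RNA of the feeder fibroblasts. The labels name no sort that would have removed the feeders.

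Smooth muscle contracts when myosin, switched on through its regulatory light chain, pulls on filaments of smooth muscle actin that carry tropomyosin and calponin. Most of these genes are not confined to smooth muscle: activated fibroblasts also make smooth muscle alpha-actin and transgelin, and many cells with stress fibres use tropomyosins, alpha-actinin and calponin 2. Many are targets of the serum response factor (SRF), which binds the CArG box, a 10-base DNA element, with myocardin or the myocardin-related transcription factors as partners.

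Promoter sequence, credited to RefSeq on GRCm38.p6, was at hand for 8 of the 10 genes, all but Actg2 and Tagln. Each window covers the 250 bases before the annotated start, and both strands were searched for the CArG box, whose pattern reads the same on either strand. The windows of Cnn2 and Myl9 held a CArG box, 56 and 161 bases before the start. CArG-like elements, in which 1 of the inner A or T bases is a C or G, lay 84 and 34 bases before the start of Acta2 and 99 bases before that of Myl9. Across all 32851 windows of the table, 1.47% held a CArG box and 7.24% a CArG-like element. A match is only a match of letters. The 3 windows with a match are shown because they belong to genes that rose and hold letters that match the SRF element, with the matches in capitals. They are Acta2 (chr19:34255374-34255623, minus strand), Cnn2 (chr10:79988350-79988599, plus strand) and Myl9 (chr2:156775214-156775463, plus strand).
Acta2: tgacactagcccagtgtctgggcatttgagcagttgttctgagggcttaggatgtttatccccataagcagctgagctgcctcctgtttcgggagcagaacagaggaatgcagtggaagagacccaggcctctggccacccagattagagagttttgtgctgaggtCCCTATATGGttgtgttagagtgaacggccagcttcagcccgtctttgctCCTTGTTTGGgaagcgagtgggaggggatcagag
Cnn2: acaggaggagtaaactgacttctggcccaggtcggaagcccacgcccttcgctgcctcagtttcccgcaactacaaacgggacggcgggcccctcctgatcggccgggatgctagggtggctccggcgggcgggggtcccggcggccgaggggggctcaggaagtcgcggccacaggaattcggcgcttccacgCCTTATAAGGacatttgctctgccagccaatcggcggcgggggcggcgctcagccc
Myl9: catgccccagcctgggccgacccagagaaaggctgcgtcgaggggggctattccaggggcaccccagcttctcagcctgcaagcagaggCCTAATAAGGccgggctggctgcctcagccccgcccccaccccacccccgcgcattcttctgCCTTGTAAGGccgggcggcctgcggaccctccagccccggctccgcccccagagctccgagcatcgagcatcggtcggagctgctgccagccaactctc
The windows of Cnn1, Tpm1, Tpm2, Actn1 and Vim held neither element, which says only that these letters are not in those windows.

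Values are given as scaled signal, the processed signal divided by the 75th percentile of that array, so that a scaled signal of 1 is the brightness of the 75th-percentile probe. Probes differ in how well they hybridise, so scaled signals are compared between arrays and not between probes. The number of arrays limits the precision. The median processed signal of the arrays ran from 74.6 to 126, and the share of probes well above background from 66.3% to 75.4%. The cell type labels were checked on pluripotent cell markers: Zfp42 (log2 fold change -10.55) and Dppa4 (-9.46) were lower in EpiSC, and Fgf5 (7.71) was higher in EpiSC, all with limma adjusted p under 0.05. Dppa4 was above background on 1 of the 3 EpiSC arrays and Fgf5 on 2 of the 3 mES arrays. The arrays came from 4 slides, each scanned once, and each slide held 1 cell type only. Cell type therefore cannot be told apart from slide, scan or growth factor.

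Most of the smooth muscle and contractile genes were higher in EpiSC. Of the 17 probes, 13 rose, 0 fell and 4 did not pass the test (limma, Benjamini-Hochberg adjusted p under 0.05 over 29552 probes). By the same test 11.7% of all probes rose and 14.3% fell. The probes that rose belong to 8 of the 10 genes: Acta2, Actg2, Tagln, Cnn1, Cnn2, Myl9, Tpm1 and Tpm2. For each of the 13, all 3 EpiSC arrays were above all 3 mES arrays, as was the case for 19.9% of all probes. The log2 fold change (EpiSC minus mES) was positive for 16 of the 17, with a median of 1.67 against -0.11 over all probes, and 11 of the 17 were at least 2-fold higher. These counts include Acta2 probe A_52_P210078, which entered through EpiSC alone and was above background on 1 of the 3 mES arrays. In a fit of only probes above background on all 6 arrays, 12 of 16 contractile probes were called higher. In that fit 2906 of all 25585 probes were called higher, and 15 of the 16 had a positive log2 fold change. The arrays measure RNA of whole cultures, so fewer cells of a type and less RNA per cell cannot be told apart.

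The count of calls depended on which arrays entered the fit. It fell to 8 when EpiSC replicate 1 was left out and to 8 when EpiSC replicate 3 was, and lay between 9 and 13 when any of the other 4 arrays was. With only the 4 arrays at slide position 4 it was 4, against 5.83% of all probes called higher, and those 4 were probes of Acta2 (A_52_P210078), Tagln (A_52_P517683), Cnn2 and Tpm2 (A_52_P418477). This Acta2 probe was not above background on the mES arrays at that position, so its call there had no measured mES level. In these fits 16 of the 17 probes again had a positive log2 fold change. The p-values measure only the spread between these 6 arrays, of which 2 share an EpiSC line.

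**Figure D1:**
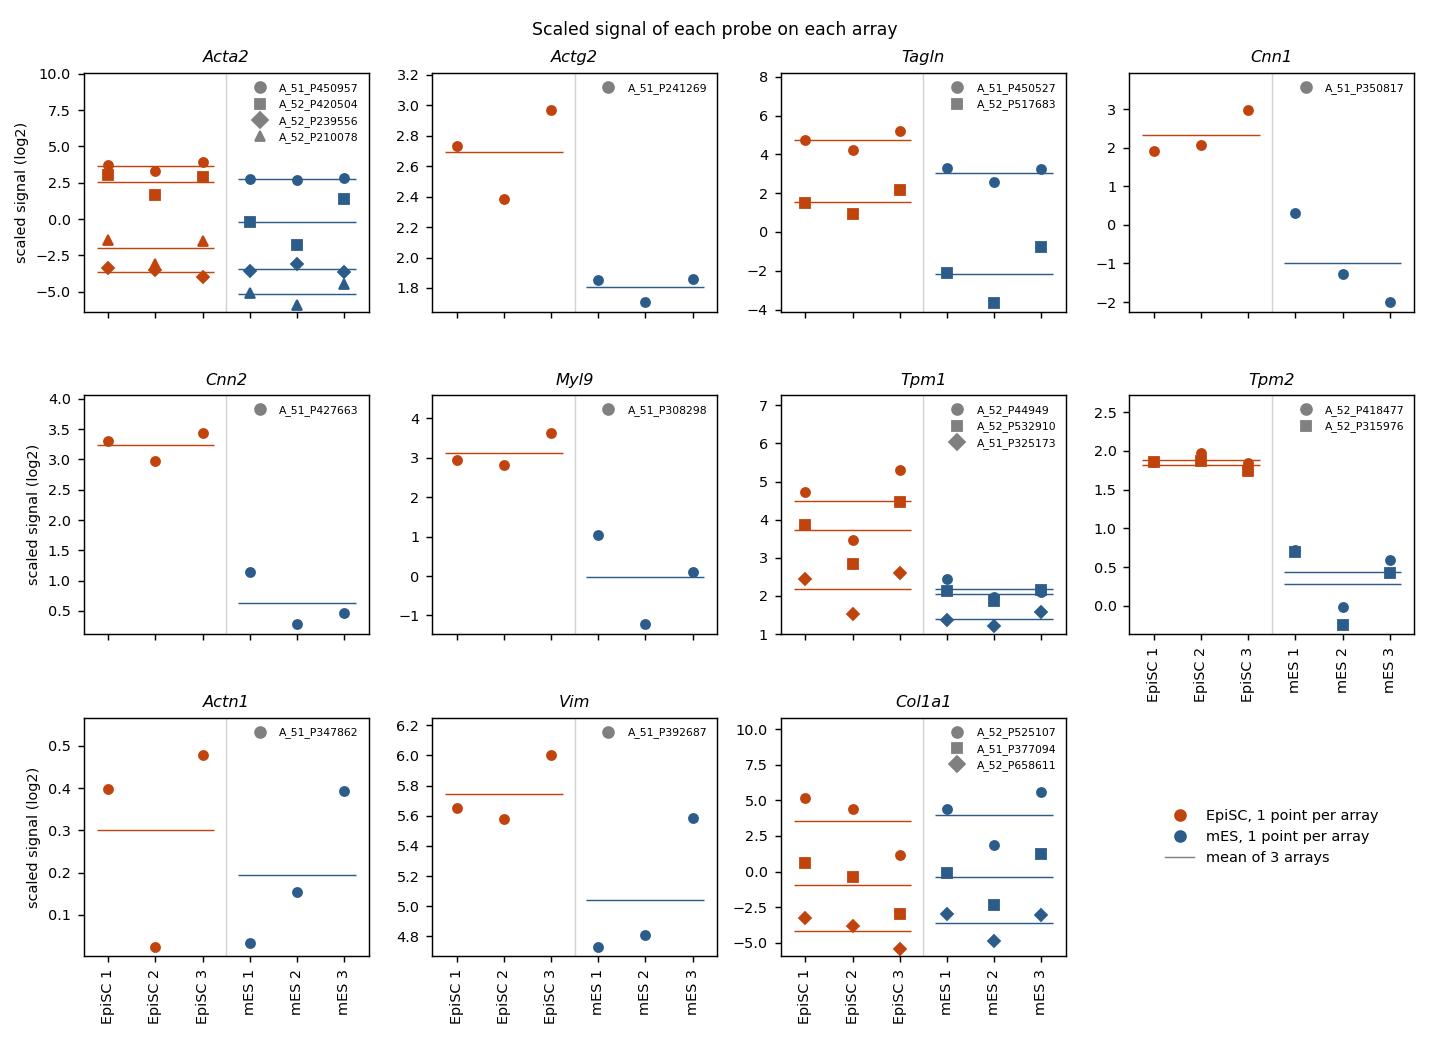
Scaled signal on a log2 scale (vertical axis) of each probe that entered the comparison, for the 10 genes and Col1a1, on the 3 EpiSC arrays (orange) and the 3 mES arrays (blue), with lines at the means of 3 arrays. In Cnn1, Cnn2, Myl9 and Tpm2, and within each probe of Tagln, all EpiSC points lie above all mES points. In Actn1 and within each probe of Col1a1 they overlap.

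Acta2 encodes smooth muscle alpha-actin, the thin-filament actin of vascular smooth muscle. Its brightest probe, A_51_P450957, had scaled signals of 13.2, 9.87 and 15.2 in EpiSC replicates 1 to 3, against 6.75, 6.58 and 7.14 in mES replicates 1 to 3. The mES arrays were close together and the EpiSC arrays stood apart from them, 1.84-fold higher (log2 fold change 0.88 ± 0.21, standard error, limma adjusted p = 0.0251). This call rests on the full set of arrays, since it passed in 2 of the 6 fits that leave out 1 array. The adjusted p reached 0.0825 when EpiSC replicate 1 was left out and 0.0775 when EpiSC replicate 3 was, and 0.0710 and 0.0738 when mES replicate 1 or 2 was.

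The other Acta2 probes gave other sizes of change. The probe printed on 10 spots, A_52_P420504, had scaled signals of 8.23, 3.15 and 7.47 in EpiSC and of 0.884, 0.296 and 2.64 in mES. Here the mES arrays differed 8.91-fold among themselves, and the highest of them lay just below the lowest EpiSC array. EpiSC were 6.54-fold higher on this probe (log2 fold change 2.71 ± 0.80, limma adjusted p = 0.0486). The spots of this probe agreed closely on each array, with a log2 standard deviation of 0.051 to 0.199, which is less than the spread between the mES arrays. The call passed in 1 of the 6 fits that leave out 1 array, the fit without mES replicate 3 (adjusted p = 0.0158). In the other 5 fits the adjusted p lay between 0.0617 and 0.141, and the log2 fold change was 1.92 without mES replicate 2.

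A dimmer probe of the same Acta2 transcript, A_52_P210078, had scaled signals of 0.363, 0.115 and 0.357 in EpiSC and of 0.0297, 0.0168 and 0.0457 in mES. It was above background on all 3 EpiSC arrays and on mES replicate 3 only, so it entered through EpiSC alone and its mES level was measured on 1 of 3 arrays. The fitted log2 fold change was 3.12 ± 0.55 (limma adjusted p = 0.0100), but 1.35 with normexp background correction, so its size is not settled by these arrays. The Acta2 probe A_52_P239556, designed on a different cDNA, did not pass the test. Its scaled signals were 0.0949, 0.0870 and 0.0629 in EpiSC against 0.0856, 0.117 and 0.0788 in mES, and the groups overlapped (log2 fold change -0.20 ± 0.25, limma adjusted p = 0.563). The 3 Acta2 probes above background on all 6 arrays thus differed in size of change, with log2 fold changes from -0.20 to 2.71. The lowest of these came from A_52_P239556, a dim probe with processed signals of 48.6 to 92.1 over the 6 arrays.

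Actg2 encodes smooth muscle gamma-actin, the form of visceral smooth muscle. Its 1 probe had scaled signals of 6.65, 5.22 and 7.82 in EpiSC, against 3.61, 3.26 and 3.62 in mES. EpiSC were higher by 1.85-fold (log2 fold change 0.89 ± 0.20, limma adjusted p = 0.0221), with no overlap. Its profile followed that of Acta2 probe A_51_P450957 closely: the log2 ratio between these 2 probes stayed between 0.91 and 1.01 on the 6 arrays. The Actg2 call was lost without EpiSC replicate 1 (adjusted p = 0.0736), EpiSC replicate 3 (0.0691), mES replicate 1 (0.0590) or mES replicate 2 (0.0702). The smooth muscle actins are near-identical in sequence, and which actin transcripts each probe binds was not tested.

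Tagln encodes transgelin, also called SM22-alpha, an actin-binding protein of smooth muscle and activated fibroblasts. On probe A_51_P450527 the scaled signals were 26.4, 18.8 and 36.8 in EpiSC and 9.78, 5.94 and 9.51 in mES. The lowest EpiSC array stood above the highest mES array, and the EpiSC mean was higher by 3.21-fold (log2 fold change 1.68 ± 0.32, limma adjusted p = 0.0123). The call passed in 6 of the 6 fits that leave out 1 array, with log2 fold changes from 1.44 to 1.92. The other probe, A_52_P517683, had scaled signals of 2.86, 1.88 and 4.52 in EpiSC and of 0.231, 0.0782 and 0.593 in mES. All EpiSC arrays were again above all mES arrays, 13.1-fold on average (log2 fold change 3.71 ± 0.73, limma adjusted p = 0.0138). This was the highest fold change among the 17 probes. It passed in 5 of the 6 fits that leave out 1 array, with an adjusted p of 0.0551 without EpiSC replicate 3. Both Tagln probes are listed for the same transcript, and their log2 fold changes differed by 2.03.

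The calponins are actin-binding proteins that restrain the myosin motor, Cnn1 in smooth muscle and Cnn2 more widely. For Cnn1 the scaled signals were 3.78, 4.19 and 7.84 in EpiSC and 1.23, 0.415 and 0.249 in mES. The EpiSC mean of Cnn1 was higher by 9.91-fold (log2 fold change 3.31 ± 0.60, limma adjusted p = 0.0110), with a 4.95-fold spread among the mES arrays. The lowest mES array for Cnn1 was replicate 3. For Cnn2 the scaled signals were 9.90, 7.86 and 10.9 in EpiSC and 2.21, 1.21 and 1.39 in mES. The Cnn2 arrays were tight within each cell type, and EpiSC were 6.11-fold higher (log2 fold change 2.61 ± 0.28, limma adjusted p = 0.00189). Both calls passed in 6 of the 6 fits that leave out 1 array. Cnn2 was called higher under every one of the 19 alternative settings tried.

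Myl9 encodes the regulatory light chain of smooth muscle and non-muscle myosin. Its 1 probe had scaled signals of 7.65, 7.08 and 12.5 in EpiSC, against 2.05, 0.427 and 1.07 in mES. Myl9 was higher in EpiSC by 8.97-fold (log2 fold change 3.17 ± 0.57, limma adjusted p = 0.0103), and the call passed in 6 of the 6 fits that leave out 1 array. The EpiSC arrays spread 1.77-fold and the mES arrays 4.80-fold.

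Tropomyosins lie along the actin filament and govern the access of myosin. The 3 probes of Tpm1 moved by different amounts. Probe A_52_P44949 had scaled signals of 26.5, 11.1 and 39.3 in EpiSC and of 5.41, 3.92 and 4.32 in mES (log2 fold change 2.33 ± 0.46, limma adjusted p = 0.0139). Probe A_52_P532910 had 14.4, 7.16 and 22.1 in EpiSC and 4.40, 3.62 and 4.49 in mES (log2 fold change 1.67 ± 0.40, limma adjusted p = 0.0273). On both, EpiSC replicate 2 was well below the other EpiSC arrays but above every mES array. The call on A_52_P44949 had an adjusted p of 0.0506 without EpiSC replicate 1. The call on A_52_P532910 passed only without EpiSC replicate 2 (0.00837), and in the other 5 fits that leave out 1 array its adjusted p lay between 0.0521 and 0.0838.

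The remaining Tpm1 probe, A_51_P325173, is designed on another cDNA and did not pass. Its scaled signals were 5.49, 2.85 and 6.03 in EpiSC and 2.58, 2.303 and 3.00 in mES, so that EpiSC replicate 2 lay below mES replicate 3 (log2 fold change 0.80 ± 0.31, limma adjusted p = 0.103). It passed without EpiSC replicate 2 (adjusted p = 0.0190). Tpm1 is spliced into several forms, and which of them each probe binds was not tested.

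Tpm2, the beta-tropomyosin gene, gave nearly the same result on its 2 probes. Scaled signals of probe A_52_P418477 were 3.63, 3.92 and 3.58 in EpiSC and 1.65, 0.992 and 1.51 in mES (log2 fold change 1.45 ± 0.23, limma adjusted p = 0.00704). Probe A_52_P315976 had 3.63, 3.67 and 3.33 in EpiSC and 1.62, 0.840 and 1.34 in mES (log2 fold change 1.54 ± 0.27, limma adjusted p = 0.00926). The EpiSC arrays were within 1.10-fold of each other on both probes, the narrowest spread among the genes that rose. Both calls passed in 6 of the 6 fits that leave out 1 array.

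Actn1 and Vim did not pass the test. Actn1 encodes the non-muscle alpha-actinin that crosslinks actin in stress fibres and adhesions. Its scaled signals were 1.32, 1.02 and 1.39 in EpiSC and 1.02, 1.11 and 1.31 in mES, and the groups overlapped (log2 fold change 0.11 ± 0.20, 95% interval -0.38 to 0.59, limma adjusted p = 0.717). Vim encodes vimentin, the intermediate filament protein of mesenchymal cells. Its probe A_51_P392687 had scaled signals of 50.2, 47.7 and 64.2 in EpiSC and of 26.6, 28.01 and 48.0 in mES. mES replicates 1 and 2 were well below the EpiSC arrays, but mES replicate 3 reached the level of EpiSC replicate 2 (log2 fold change 0.70 ± 0.28, limma adjusted p = 0.106). Without mES replicate 3 the log2 fold change was 0.97 with an adjusted p of 0.0271.

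**Figure D2:**
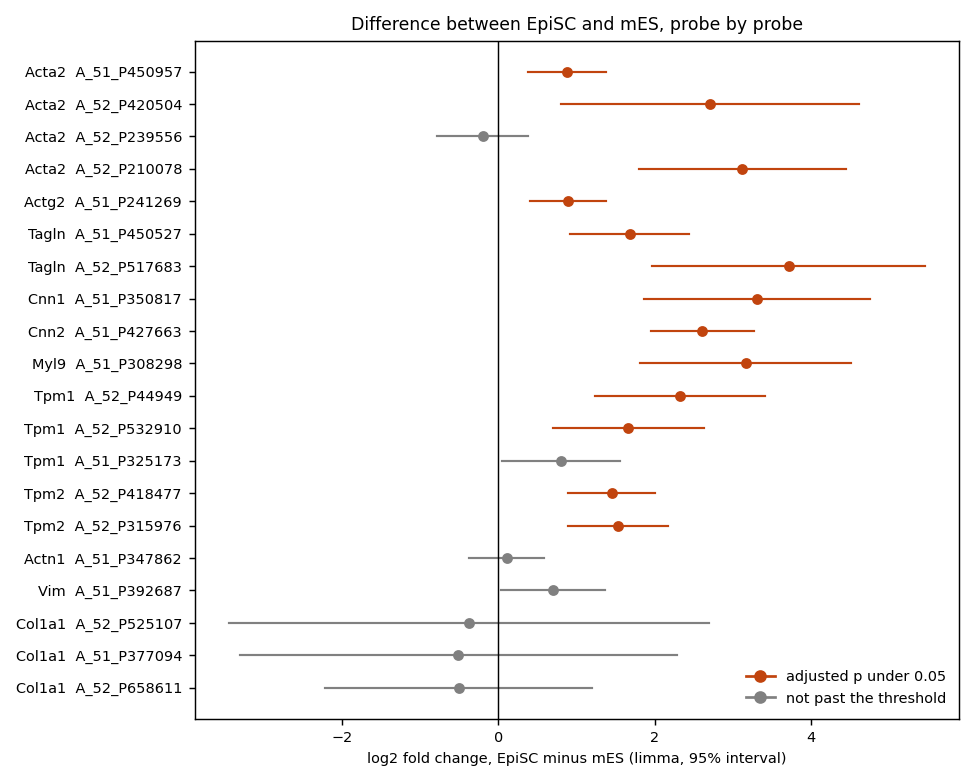
Log2 fold change (horizontal axis, EpiSC minus mES) of each probe with its 95% interval from limma, orange where the adjusted p is under 0.05. The 13 probes that passed lie between 0.88 and 3.71, and the 3 Col1a1 probes at the bottom have intervals that span 0.

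Within each cell type the same array was the lowest on most of the 17 probes. Several of these probes measure the same gene, so they are not independent. Acta2 probe A_52_P210078, among them, was above background on 1 of the 3 mES arrays. EpiSC replicate 2 was the lowest EpiSC array on 13 of the 17 probes, as it was on 26.1% of all probes, and EpiSC replicate 3 was the highest on 12, as on 26.7% of all probes. Among mES, replicate 2 was the lowest array on 13 of the 17 probes, against 22.5% of all probes. The highest mES array was replicate 3 on 9 probes, against 27.6% of all probes, and replicate 1 on 7, against 33.9%.

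The 2 arrays of line EpiSC-7 differed in passage. At passage 25, 14 of the 17 probes were higher than at passage 20, against 37.6% of all probes, with a median log2 difference of 0.82 against -0.16 over all probes. Of the 17 probes, 6 were at least 2-fold higher at passage 25, against 3.72% of all probes. The largest differences were on Tpm1 probe A_52_P44949, 3.55-fold higher at passage 25, and on Acta2 probe A_52_P210078, 3.095-fold higher. Col1a1 went the other way, being 9.29-fold higher at passage 20. With 1 array at each passage these differences have no replicate check. Passage cannot be told apart from the culture, its feeders or the position on the slide, which was 4 for passage 20 and 1 for passage 25.

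Col1a1 encodes the main chain of type I collagen, which fibroblasts make in quantity, and it was set beside Acta2 and Tagln on each array. Its 10-spot probe had scaled signals of 36.7, 20.7 and 2.23 in EpiSC replicates 1 to 3 and of 21.4, 3.63 and 47.1 in mES replicates 1 to 3. Col1a1 thus varied 16.4-fold among EpiSC arrays and 12.9-fold among mES arrays, and the groups overlapped (log2 fold change -0.37 ± 1.28, limma adjusted p = 0.848). Its other 2 probes gave log2 fold changes of -0.51 with adjusted p of 0.769 and 0.622.

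Among the mES arrays, some probes of Acta2 and Tagln had the same order of arrays as Col1a1. Taking each probe's deviation from its own mean over the 6 arrays, mES replicates 1 to 3 stood at 0.66, -1.90 and 1.80 on Col1a1. They stood at -1.36, -2.93 and 0.22 on Acta2 probe A_52_P420504, and at -1.79, -3.35 and -0.43 on Tagln probe A_52_P517683, lowest on replicate 2 and highest on replicate 3 as for Col1a1. On Acta2 probe A_51_P450957 they were nearly level, at -0.45, -0.49 and -0.37. The EpiSC arrays broke from Col1a1 at replicate 3. EpiSC replicates 1 to 3 stood at 1.44, 0.61 and -2.60 on Col1a1, but at 1.86, 0.48 and 1.72 on Acta2 probe A_52_P420504 and at 1.84, 1.23 and 2.501 on Tagln probe A_52_P517683. EpiSC replicate 3 was the array lowest in Col1a1 and the highest in both Tagln probes.

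**Figure D3:**
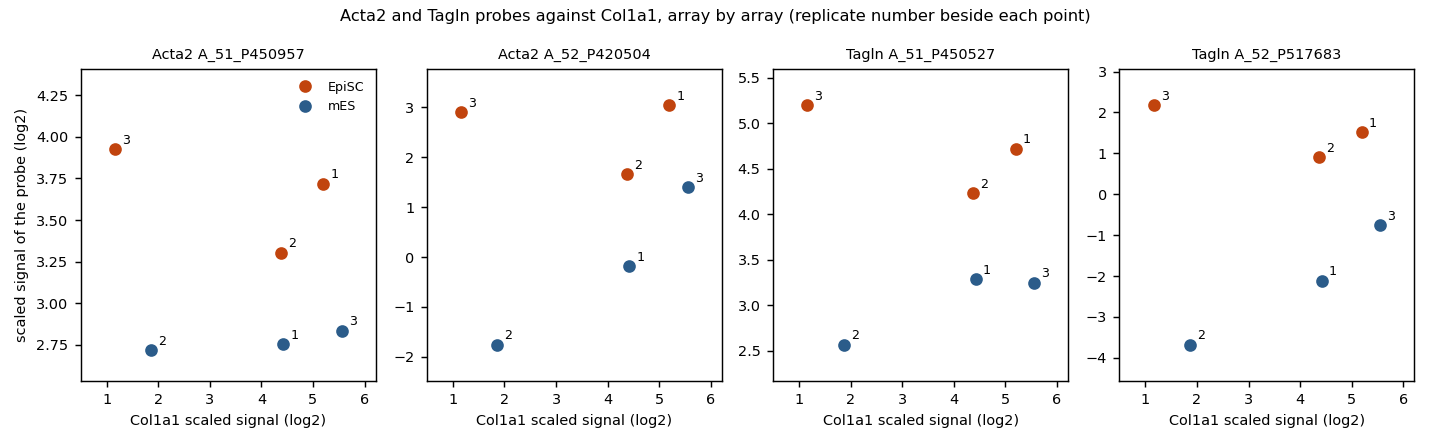
Log2 scaled signal of 2 Acta2 probes and 2 Tagln probes (vertical axes) against that of the 10-spot Col1a1 probe (horizontal axes) on each array, EpiSC in orange and mES in blue, with the replicate number beside each point. In each panel EpiSC replicate 3 is at the far left, low in Col1a1 and high in the plotted probe, and mES replicate 2 is low in both.

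The log2 difference between each probe and Col1a1 within an array was compared between the cell types by an exact two-sided permutation test, whose smallest possible p with 3 arrays against 3 is 0.1, so that no comparison could reach 0.05. The 6 probes tested give 6 comparisons, over which Benjamini-Hochberg adjusted values are given. Relative to Col1a1, Tagln probe A_52_P517683 stood at -3.68, -3.46 and 1.02 in EpiSC against -6.53, -5.54 and -6.31 in mES, every EpiSC array above every mES array (difference 4.08, exact permutation p = 0.1, adjusted 0.2). Acta2 probe A_52_P420504 stood at -2.15, -2.72 and 1.74 in EpiSC against -4.60, -3.62 and -4.16 in mES, again without overlap (difference 3.08, exact permutation p = 0.1, adjusted 0.2). Acta2 probe A_52_P210078 is among the 6, but no difference is given for it, since 2 of its 3 mES values did not clear the background.

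The brightest probes of both genes overlapped once set against Col1a1. Tagln probe A_51_P450527 stood at -0.48, -0.14 and 4.04 in EpiSC and at -1.13, 0.71 and -2.31 in mES (difference 2.05, exact permutation p = 0.4, adjusted 0.6). Acta2 probe A_51_P450957 stood at -1.48, -1.07 and 2.77 in EpiSC and at -1.67, 0.86 and -2.72 in mES (difference 1.25, exact permutation p = 0.5, adjusted 0.6). EpiSC replicate 3 carries much of these differences: without it they were 0.60 for the Tagln probe and -0.10 for the Acta2 probe. Acta2 probe A_52_P239556 differed by 0.17 (exact permutation p = 0.9, adjusted 0.9).

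Arrays of like Col1a1 level can also be set side by side, in pairs formed after the values were seen. EpiSC replicate 1 (Col1a1 36.7) was set against mES replicate 3 (47.1), where 17 of the 17 contractile probes were higher in EpiSC, as were 49.8% of all probes, and 11 were at least 2-fold higher, against 16.1% of all probes. EpiSC replicate 2 (20.7) was set against mES replicate 1 (21.4), where 16 were higher and 9 at least 2-fold higher, against 45.0% and 11.8% of all probes. EpiSC replicate 3 (2.23) was set against mES replicate 2 (3.63), where 16 were higher and 15 at least 2-fold higher, against 37.8% and 13.02%. Most probes were thus higher in EpiSC in all 3 pairs, with medians over the 17 probes of 1.47, 1.03 and 2.61 (log2). The 17 include Acta2 probe A_52_P210078, which was not above background on mES replicates 1 and 2. Tagln probe A_52_P517683 was 4.82-fold, 8.12-fold and 57.8-fold higher in EpiSC in these 3 pairs, and Acta2 probe A_52_P420504 was 3.12-fold, 3.56-fold and 25.2-fold higher. Each pair is 1 array against 1 and has no test.

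In limma fits chosen after seeing the data, adding the Col1a1 level as a covariate left 13 probes called higher, against 9.85% of all probes. Leaving out the array lowest in Col1a1 of each cell type, EpiSC replicate 3 and mES replicate 2, left 3 probes called higher, against 3.70% of all probes. These 3 were probes of Cnn2, Myl9 and Tpm2 (A_52_P315976). In that smaller fit the 4 probes not called in the full set included Actn1 with a log2 fold change of -0.0012 and Acta2 probe A_52_P239556 with one of 0.15, both of the opposite sign to the full set.

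No fibroblast marker rose past the test in EpiSC. Of 28 markers, 27 were measured, all of them above background on all 6 arrays, and 0 rose and 1 fell (limma adjusted p under 0.05 over 20689 genes), against 11.3% of all genes higher and 14.9% lower. Many of these markers varied widely between arrays, with standard errors of 1.35 for Col3a1 and 1.33 for Lum, against a median of 0.24 over all genes. Changes in such markers could be missed, so the lack of calls does not show that they were unchanged. Fap was not measured. The marker that fell was Fn1, the fibronectin gene (log2 fold change -1.69 ± 0.32, adjusted p = 0.0132), whose call was lost without EpiSC replicate 3 (0.0530). The median log2 fold change of the list was -0.32, against -0.13 over all genes. Summed over the 26 markers with a value on every array (Col1a2 had a discarded spot on mES replicate 3), the scaled signal was 134, 79.1 and 31.0 in EpiSC replicates 1 to 3 and 92.0, 27.9 and 164 in mES replicates 1 to 3. The 10 contractile genes summed to 149, 117 and 199 in EpiSC and 60.3, 51.9 and 78.1 in mES, with no overlap. Of these sums, Vim alone, which did not pass the test, gave 50.2, 47.7 and 64.2 in EpiSC and 26.6, 28.01 and 48.0 in mES. The contractile sums are thus weighted to the brightest probes and do not describe the 10 genes evenly. The fibroblast sums overlapped, and the lowest EpiSC array on the fibroblast sum was the highest on the contractile sum. None of the measured fibroblast markers was below background on any array, and the part of feeder RNA in the signal of each contractile gene was not tested.

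**Figure D4:**
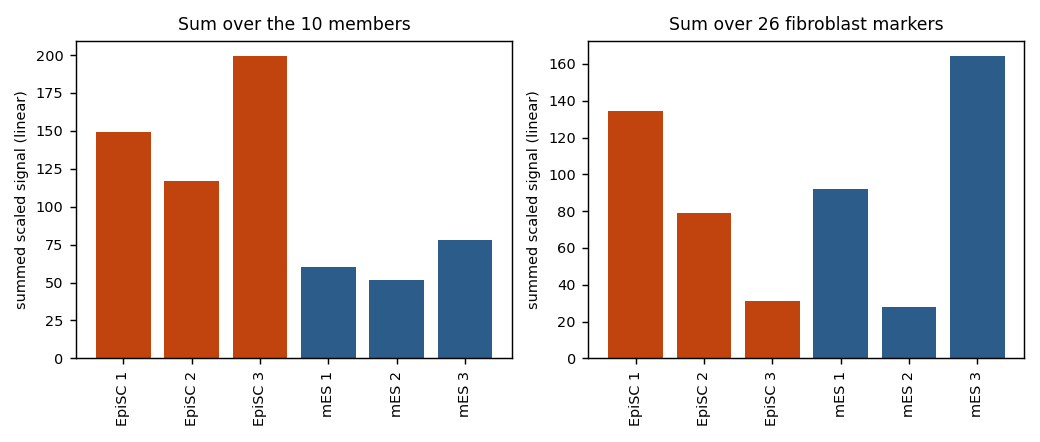
Summed scaled signal (vertical axes, linear) per array of the 10 contractile genes (left) and of 26 fibroblast markers (right), 1 bar per array, EpiSC in orange and mES in blue. The contractile sum is 117 to 199 in EpiSC against 51.9 to 78.1 in mES, while the fibroblast sum is 31.0 to 134 in EpiSC against 27.9 to 164 in mES. Both sums are weighted to their brightest probes, the contractile sum to Vim among others.

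The genes most like Acta2 and Tagln in profile were looked for by the mean absolute difference between deviations over the 6 arrays, on the log2 scale. For Acta2 probe A_51_P450957 they were Actg2 (0.033), Bex2 (0.051), Srprb (0.056), which encodes a subunit of the signal recognition particle receptor, the histone demethylase gene Kdm6b (0.058) and the unnamed transcript TC1459687 (0.058). For Tagln probe A_51_P450527 they were Tdrd7 (0.086), the proprotein convertase gene Furin (0.106), the unnamed transcript TC1462346 (0.113), Reep3 (0.122) and the vesicle fusion gene Vamp3 (0.129). Among the 10 members only Actg2 came this close to either of them. Col1a1 ranked 19827 of 20637 genes in likeness to Acta2 and 18940 in likeness to Tagln. The measure counts the size of the deviations as well as their shape, so a low rank is not particular to Col1a1. The other members ranked from 1 (Actg2) to 19162 (Cnn1) in likeness to Acta2, and from 151 (Tpm2) to 8935 (Cnn1) in likeness to Tagln.

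Of 19 other genes of the smooth muscle contractile apparatus, 5 rose, 2 fell and 12 did not pass, against 11.3% of all genes higher and 14.9% lower. Their median was -0.20 (log2), against -0.13 over all genes. The rises with the largest change were in Fhl2 (3.18 ± 0.80, limma adjusted p = 0.0314), Pdlim3 (2.26 ± 0.51, 0.0228) and Csrp1 (1.57 ± 0.33, 0.0169), which encode LIM-domain proteins of actin filaments. The 2 that fell were Ppp1r14a, which encodes an inhibitor of myosin phosphatase (-2.89 ± 0.35, adjusted p = 0.00300), and the LIM-domain gene Csrp2 (-1.77 ± 0.30, 0.00890). With 1 array left out, Fhl2 passed in 2 of 6 fits (lost without EpiSC replicate 1 or 3 or mES replicate 1 or 2, adjusted p up to 0.104). Pdlim3 passed in 3 of 6 (lost without EpiSC replicate 1 or 3 or mES replicate 2, up to 0.0815), and Csrp1 in 3 of 6 (lost without EpiSC replicate 1 or mES replicate 1 or 2, up to 0.0571).

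Myh11, Smtn and Lmod1, held to be markers of differentiated smooth muscle, gave no call, and neither did Des. They were named after their values were seen. Myh11, the smooth muscle myosin heavy chain gene, had scaled signals of 0.0700, 0.0791 and 0.0589 in EpiSC against 0.0914, 0.103 and 0.0826 in mES (log2 fold change -0.42 ± 0.19, limma adjusted p = 0.145). The log2 fold changes of Smtn, the smoothelin gene (0.95 ± 0.37, adjusted p = 0.106), Lmod1, the leiomodin gene (-0.27 ± 0.20, 0.349), and Des, the desmin gene (-0.59 ± 0.35, 0.245), did not pass either. The genes of this list that did not pass lay on both sides, from Synm (-1.24, limma adjusted p = 0.356) to Cald1 (1.83, 0.0580). The name smooth muscle here says what the 10 genes are known for. Myh11, Smtn, Lmod1 and Des did not pass the test, while Cnn1, the smooth muscle calponin among the 10, did rise. The Smtn change of 0.95 was as large as those of Actg2 (0.89 ± 0.20) and Acta2 probe A_51_P450957 (0.88 ± 0.21), which were called. Smtn had a larger standard error than these, and its groups overlapped.

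Among the non-muscle and striated relatives of the 10 genes and their actin partners, 9 of the 24 measured rose, 3 fell and 12 did not pass. Over all genes 11.3% were higher and 14.9% lower. The median of the list was 0.40, against -0.13 over all genes. The largest rises were in Acta1, the skeletal muscle alpha-actin gene (2.86 ± 0.45, limma adjusted p = 0.00678), the focal adhesion gene Zyx (2.65 ± 0.37, 0.00457) and the tropomyosin gene Tpm4 (1.94 ± 0.23, 0.00305). Zyx had scaled signals of 22.9, 29.5 and 43.4 in EpiSC against 7.81, 3.98 and 3.82 in mES. Those that fell were Lima1 (-1.54 ± 0.30, 0.0136), the non-muscle myosin gene Myh14 (-1.04 ± 0.26, 0.0296) and Actn2 (-0.71 ± 0.20, 0.0429). Myh14 passed in 2 of the 6 fits that leave out 1 array (without EpiSC replicate 2 or mES replicate 2), its adjusted p reaching 0.0885 elsewhere. Actn2 passed in 1, without mES replicate 1, and reached 0.127 elsewhere. Cytoplasmic beta-actin, Actb, had scaled signals of 22.9, 27.2 and 22.3 in EpiSC against 26.9, 27.0 and 21.9 in mES (log2 fold change -0.07 ± 0.18, adjusted p = 0.803). Some genes stand in 2 of the lists used here, as Acta1 and Actc1 do among the relatives and the striated muscle markers.

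The regulators and targets of SRF and of transforming growth factor beta (TGF-beta), a growth factor that raises smooth muscle genes in fibroblasts, rose in 8 of 19 and fell in 1. Over all genes 11.3% were higher and 14.9% lower. The median of the list was 1.02, against -0.13 over all genes. Srf itself had scaled signals of 7.48, 5.20 and 8.04 in EpiSC against 2.34, 2.00 and 2.54 in mES (log2 fold change 1.57 ± 0.23, limma adjusted p = 0.00513). The largest rises were in Tgfb2, a TGF-beta ligand (4.54 ± 1.00, adjusted p = 0.0202), Ccn1, a matricellular SRF target (2.84 ± 0.49, 0.00933), and Tgfb1i1, which encodes the focal adhesion protein Hic-5 (2.09 ± 0.50, 0.0257). Tgfb2 was above background on 2 of the 3 mES arrays, and its call was lost without EpiSC replicate 1 or 3 (adjusted p up to 0.0745). The 3 probes of Tgfb1i1 disagreed, with log2 fold changes of -1.19, 2.09 and 2.48, and without EpiSC replicate 1, 2 or 3 the falling probe was the brightest and stood for the gene (-1.44, -1.21 and -0.92). The rise was also lost without mES replicate 1 (limma adjusted p = 0.0670) and without mES replicate 2 (0.0571).

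The 1 regulator that fell was Mrtfb, which encodes a myocardin-related partner of SRF. Its scaled signals were 0.0482, 0.0623 and 0.0432 in EpiSC against 0.269, 0.304 and 0.158 in mES (log2 fold change -2.21 ± 0.30, limma adjusted p = 0.00415). Myocd, the myocardin gene, missed the threshold on the probe with the higher mean log2 signal over the 6 arrays (1.11 ± 0.60, adjusted p = 0.207). Probe A_51_P469942 of the same gene had scaled signals of 1.02, 0.0412 and 0.0806 in EpiSC and was not well above background on any mES array. Set against the dimmest signals that cleared background on the mES arrays, its EpiSC mean (log2 scale) was 5.84-fold higher. That value leans on EpiSC replicate 1, which was far above the other 2, and is no bound for each EpiSC array. Its mES level was not measured, so no test is given for it.

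Vim was set beside 12 other intermediate filament genes outside the keratins, of which 1 rose and 3 fell, against 11.3% and 14.9% of all genes. Their median was -0.53, against -0.13 over all genes. Nefm, the medium neurofilament gene, rose (2.99 ± 0.35, limma adjusted p = 0.00265). Nefh, the heavy neurofilament gene (-3.98 ± 0.36, 0.00111), the peripherin gene Prph (-1.94 ± 0.31, 0.00689) and the syncoilin gene Sync (-1.03 ± 0.21, 0.0156) fell. Sync passed in 2 of the 6 fits that leave out 1 array, being lost without EpiSC replicate 1 or 3 or mES replicate 1 or 2 (adjusted p up to 0.103).

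Of 21 markers of cardiac and skeletal muscle, 3 were higher and 3 lower, shares near the 11.3% and 14.9% of all genes, and their median was -0.21 against -0.13 over all genes. Those higher were Acta1, given above, Actc1, the cardiac alpha-actin gene (1.33 ± 0.18, limma adjusted p = 0.00400), and the beta-myosin gene Myh7 (1.08 ± 0.28, 0.0335). Those lower were the embryonic myosin gene Myh3 (-3.16 ± 0.47, 0.00567), the myoglobin gene Mb (-2.18 ± 0.23, 0.00202) and the ventricular light chain gene Myl2 (-1.27 ± 0.27, 0.0188). Myh7 passed in 1 of the 6 fits that leave out 1 array, that without mES replicate 1, and reached an adjusted p of 0.0956. Myl2 was lost without EpiSC replicate 3 or mES replicate 2 (up to 0.0597). The summed signal of these markers was 11.1 to 12.0 in EpiSC and 7.60 to 8.51 in mES. Of these sums, Actc1 alone gave 5.17, 4.39 and 5.69 in EpiSC and 2.04, 1.86 and 2.16 in mES. The sums are thus weighted to Actc1 and do not describe the list as a whole.

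Of 8 markers of vascular mural cells, the pericytes and smooth muscle of vessel walls, 6 were measured. Of these, 2 rose and 1 fell, against 11.3% and 14.9% of all genes, and 6 genes are few to set beside such shares. Their median was 0.86, against -0.13 over all genes. Notch3 (1.36 ± 0.21, limma adjusted p = 0.00689) and the potassium channel gene Kcnj8 (2.22 ± 0.25, 0.00237) were higher, Kcnj8 with a measured level in mES on 1 array of 3. The Kcnj8 call was lost with normexp background correction (log2 fold change 0.32, limma adjusted p = 0.145). Mcam was lower (-3.29 ± 0.35, 0.00202). Rgs5 and Abcc9, both pericyte markers, were not measured. The part of muscle or mural cells in the differences of the contractile genes was not tested.

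**Figure D5:**
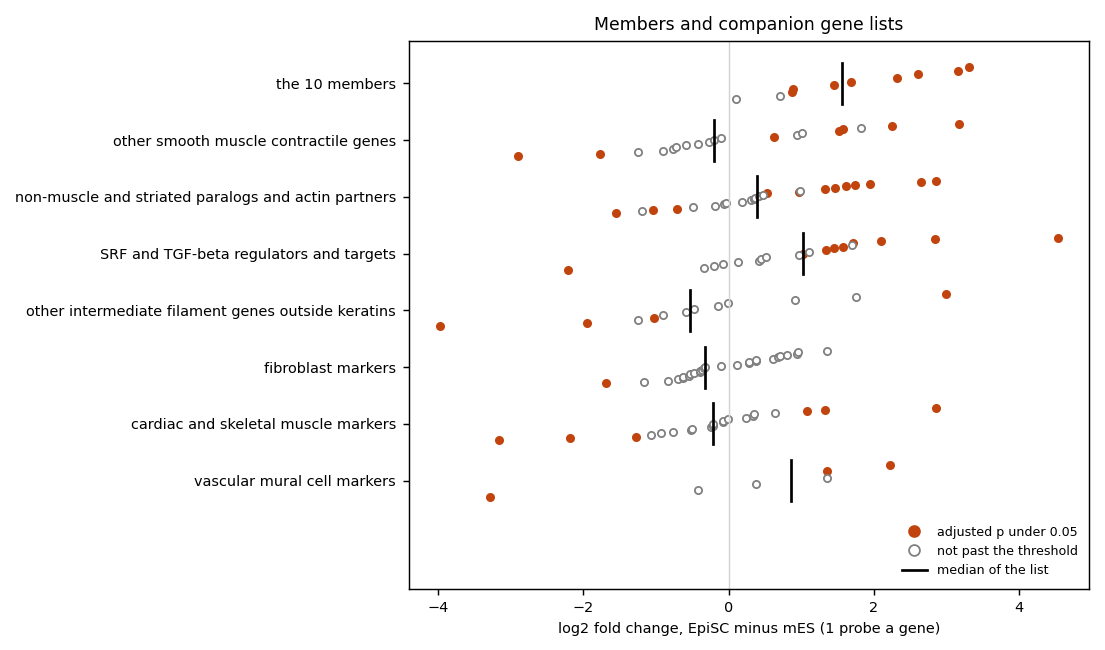
Log2 fold change (horizontal axis, EpiSC minus mES, 1 probe a gene) of each gene in the 10 contractile genes and in the 7 companion lists, filled where the limma adjusted p is under 0.05, with a bar at each list's median. The contractile genes have a median of 1.57, the regulators of SRF and TGF-beta 1.02, and the fibroblast markers -0.32.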

How the data were processed

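Total RNA was extracted with TRIzol and labelled with Cy3, per the labels' protocols. The deposited intensity values are the processed signals of Agilent Feature Extraction 9.1.3.1 per the file headers, after background subtraction and spatial and multiplicative detrending. The authors' series value table holds intensity on the same linear, uncentred scale, within 0.00716 (log2) of the processed signal of every probe, with column medians of 117, 80.25 and 82.95 (EpiSC) and 78.9, 84.9 and 68.7 (mES).

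From the 45018 spots of each array, controls and outlier spots were left out, spots of a probe were averaged, and log2 values were set relative to the array's 75th percentile. None was saturated. A probe entered (29552 did) when the scanner software marked it above background on all 3 arrays of EpiSC, of mES or of both, with at most 1 missing array per group. The cell types were compared with limma 3.58.1 (lmFit and eBayes, R 4.3.3), with Benjamini-Hochberg adjustment over all probes, or over 20689 genes with the brightest probe of each (threshold 0.05). RefSeq (GRCm38.p6) accessions named 22951 probes and the files the other 18223. Exact permutation tests used scipy 1.17.1. The fit was tested on simulated data with 200 changed probes. Probe sequences and positions are not used here.

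All probes of the 10 genes and of Col1a1 are named. From each companion list up to 3 genes in each direction were named by largest change among those past the threshold, and the 5 genes most alike to Acta2 and to Tagln. Smtn, Lmod1, Des, Myh11, Actb, Srf and Myocd were named in addition after their values were seen. The members and lists were chosen with earlier results of these data known. Alternatives were the background correction, scaling, dim-probe filter, value table, slide and position as blocks, line EpiSC-7 averaged, a variance trend and each array left out. A further pair, on Col1a1, was chosen after seeing the data.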

Additional observations from a re-analysis of the deposited data

How the results depend on the processing

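No paired analysis was possible because replicates were numbered as deposited and the numbers pair no samples. Of the contractile probes, 13 were called higher and 0 lower. The number called higher was 8 with 1 probe a gene (of 10), 4 with only the arrays at position 4, 8 to 13 with 1 array left out, and 3 without the 2 arrays lowest in Col1a1, an alternative chosen after seeing the data. It lay between 12 and 15 under the other settings (normexp, quantile or median scaling, no or a stricter filter on dim probes, the value table, slide or position as a block, line EpiSC-7 averaged, a variance trend, and Col1a1 as a covariate). In all of these fits 0 probes were called lower. Across the companion lists 26 genes were called higher and 14 lower. Those called higher numbered 42 with every probe, 16 to 28 with 1 array left out and 8 without the 2 arrays lowest in Col1a1. Those called lower numbered 24 with every probe, 27 with slide as a random block, 9 at position 4 only, 9 to 15 with 1 array left out and 6 without the 2 arrays lowest in Col1a1. The slide block had an estimated correlation of -0.69 and added calls.

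Signs turned in the following cases. Tgfb1i1 was -0.81 at position 4 only, -1.06 with line EpiSC-7 averaged, -1.44, -1.21 and -0.92 without EpiSC replicate 1, 2 or 3 (up to 2.52 with another array left out) and -1.15 without the 2 arrays lowest in Col1a1, because a different probe of the gene was then the brightest. Without those 2 arrays, Actn1 was -0.0012 and Acta2 probe A_52_P239556 0.15. Relative to Col1a1, Acta2 probe A_51_P450957 was -0.10 without EpiSC replicate 3, in a range of -0.10 to 2.26 with 1 array left out. The same range was 1.69 to 3.92 for Acta2 probe A_52_P420504, 0.60 to 2.86 for Tagln probe A_51_P450527 and 2.55 to 4.90 for Tagln probe A_52_P517683. Median scaling moved the median of all probes to -0.02 and quantile normalization to -0.01, from -0.11, and in both 16 of the 17 contractile probes kept a positive sign. Dimness limits Acta2 probe A_52_P210078, above background on 1 of 3 mES arrays. The fits with 1 array left out keep 2 arrays in one cell type.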
